A study of Homo sapiens with 21 samples.

Results

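The comparison described here set cells given 1 µM coumarin for 24 h against cells given none, using 6 of the 21 RNA-sequencing libraries of a dose series. The 3 libraries at 1 µM and the 3 at 0 µM were chosen by dose alone, and all genes of the count table entered. Coumarin is a plant lactone used as a fragrance, and human liver oxidises it mainly through the cytochrome P450 enzyme CYP2A6. Cells labelled HepG2, an established line from a human liver tumour, were washed and moved from serum-containing to serum-free medium with 0, 0.001, 0.01, 0.1, 1, 10 or 100 µM coumarin. The control received the same medium change with no coumarin, so serum withdrawal was shared by all 7 groups of 3 libraries. The series describes the 3 as biological replicates. Each p-value weighs a difference against the spread between replicates, estimated over all 21 libraries. The table lists 58735 genes. A filter on low counts left 16699 for testing, of which 12613 are protein-coding. The 6 libraries held 28838513 to 33246725 counts each, and levels are given as CPM (counts scaled to a common library size). Genes were tested with edgeR's quasi-likelihood test, and p-values were adjusted by Benjamini-Hochberg over all 16699 genes with a threshold of 0.05.

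The libraries did not carry the transcripts that define liver cells. ALB (albumin) and TTR (transthyretin) had 0 counts in all 6 libraries, and of 22 secreted liver proteins on the marker list 10 were at 0 throughout. AFP (alpha-fetoprotein) and HNF4A (a liver transcription factor) each reached at most 2 counts in any of the 21 libraries. Summed secreted liver protein levels were 5.23 to 6.14 CPM in the controls and 5.04 to 6.07 CPM at 1 µM. Epithelial markers summed to 4520 to 5030 CPM in the controls and to 5020 to 5290 CPM at 1 µM, with KRT8, KRT18 and KRT7 most of it. EPCAM and KRT5 of that list had 0 counts in the 6 libraries, and CDH1 (E-cadherin) had a mean of 0.252 CPM. Fibroblast and mesenchyme markers summed to 2550 to 2720 CPM and 2720 to 2740 CPM, while PDGFRA of that list had 0 counts and COL1A2 at most 1 in any of the 6. The cells are therefore called by their label without a claim to liver identity.

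The control libraries differed among themselves. The deposited FPKM (fragments scaled by transcript length and library total) rest on a larger total than the gene counts, and the difference gives the share of reads outside counted genes. It was 3.91% in control replicate 1 and 8.03% and 8.17% in replicates 2 and 3. The share was 2.587%, 2.595% and 2.967% at 1 µM and 1.04% to 5.43% over all treated libraries. With log2 counts of the 6 libraries, the first principal component (27.5% of the variance) placed control replicates 2 and 3 at 20.02 and 18.82, control replicate 1 at -0.13 and the 1 µM libraries between -20.04 and -5.13. Of the genes named below as called at 1 against 0 µM, 9 were also called against control replicate 1 alone: DDIT4, RHOB, MKI67, PRRC2C, NUP214, AKR1C1, COL12A1, DYNC1H1 and IGFN1. The calls of the others were lost there. With the share of reads outside counted genes as a covariate, DDIT4, RHOB, MKI67, PRRC2C, NUP214 and AKR1C1 kept their calls. The other genes named as called at 1 against 0 µM lost theirs. The share in control replicates 2 and 3 exceeded that of every treated library, so the covariate is partly confounded with the control group. A single control also gives the test less power, so a lost call does not show that a change is absent. All 335 genes called against 3 controls kept their direction against control replicate 1, at a median ratio of log2 changes of 0.806. The treated libraries and control replicate 1 enter both fits.

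At 1 against 0 µM, ADM had the largest fall of a protein-coding gene of at least 1 CPM, and DDIT4 had the smallest adjusted p of the genes named here. ADM encodes adrenomedullin, a secreted vasodilator peptide, and DDIT4 encodes an inhibitor of the growth kinase complex mTORC1. Both are textbook targets of the hypoxia-inducible factors, which bind DNA at a core of ACGTG or GCGTG. CTGF (also CCN2) and CYR61 (also CCN1) encode secreted matrix-associated proteins of one family, and both are standard readouts of the coactivator YAP, which acts through TEAD factors that bind GGAATG. The 250 bases before the start site of ADM, DDIT4 and CTGF, from RefSeq on GRCh38.p14, are shown because ADM and DDIT4 fell together while CTGF rose. For ADM the RefSeq start lies inside the gene interval of the count table, given below, so its window falls within that interval. No window was available for CYR61. Capitals mark ACGTG or GCGTG in ADM and DDIT4 and GGAATG in CTGF, each searched on both strands, and no other match overlapped them.
ADM, chr11:10304823-10305072, plus strand: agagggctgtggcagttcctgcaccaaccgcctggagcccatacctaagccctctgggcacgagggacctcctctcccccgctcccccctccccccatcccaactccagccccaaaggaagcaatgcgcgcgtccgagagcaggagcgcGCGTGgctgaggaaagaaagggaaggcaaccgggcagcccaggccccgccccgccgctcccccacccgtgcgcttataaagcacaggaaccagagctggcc
DDIT4, chr10:72273674-72273923, plus strand: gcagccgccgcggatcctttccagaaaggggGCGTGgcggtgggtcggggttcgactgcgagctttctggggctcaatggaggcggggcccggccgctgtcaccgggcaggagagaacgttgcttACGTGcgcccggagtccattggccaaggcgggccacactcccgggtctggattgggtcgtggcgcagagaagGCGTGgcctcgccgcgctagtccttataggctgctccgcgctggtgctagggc
CTGF, chr6:131951373-131951622, minus strand: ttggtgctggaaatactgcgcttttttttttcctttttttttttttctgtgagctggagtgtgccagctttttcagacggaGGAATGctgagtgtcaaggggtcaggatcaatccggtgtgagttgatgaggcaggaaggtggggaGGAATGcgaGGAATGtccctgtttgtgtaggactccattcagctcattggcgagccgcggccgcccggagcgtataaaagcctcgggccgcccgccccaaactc
DDIT4 held 3 matches, at 219 to 215, 125 to 121 and 53 to 49 bases before its start, and ADM held 1, at 101 to 97 bases. CTGF held 3 matches to GGAATG, at 169 to 164, 104 to 99 and 95 to 90 bases before its start. Of 35116 human promoters of the same length, 43.2% held ACGTG or GCGTG and 11.9% held GGAATG. The matches describe the letters of these windows and are not measured binding sites.

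ADM (ENSG00000148926, GRCh38 chr11:10304680-10307397) fell furthest among protein-coding genes of at least 1 CPM. It stood at 29.4, 31.1 and 33.9 CPM in control replicates 1 to 3 and at 16.9, 10.9 and 16.7 CPM at 1 µM. The groups did not overlap, and 1 µM replicate 2 was the lowest. The fall was 2.13-fold (log2 change -1.09 ± 0.14, SE; adjusted p = 0.00136, edgeR). The call held without any 1 of the 6 libraries, and it was lost in a fit of these 2 groups alone, with the share of reads outside counted genes as a covariate, and against control replicate 1 alone (adjusted p = 0.0904).

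The level of ADM neither rose nor fell steadily with dose. ADM had its lowest mean, 12.1 ± 0.75 CPM (SD, n = 3), at 0.001 µM. It then stood at 19.5 ± 0.63 CPM at 0.01 µM, at 27.6 ± 2.5 CPM at 0.1 µM and at 14.9 ± 3.4 CPM at 1 µM. At 10 and 100 µM it was back at 30.1 ± 5.1 and 28.5 ± 1.8 CPM, near the control mean of 31.5 ± 2.3 CPM. The 3 libraries at 1 µM thus lay below all libraries at 0.01, 0.1, 10 and 100 µM and overlapped those at 0.001 µM in the plot of levels by dose.

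DDIT4 (ENSG00000168209, chr10:72273920-72276036) was likewise lowest at 0.001 and 1 µM, with a smaller range. Its levels were 279, 278 and 269 CPM in the controls and 227, 191 and 224 CPM at 1 µM. All 3 treated libraries were below all 3 controls, again with replicate 2 the lowest. The change was -0.37 ± 0.05 on the log2 scale (adjusted p = 0.000459, edgeR). At the threshold of 0.05 it was called without any 1 library and under each alternative scaling, filter, tool, covariate and choice of libraries, including control replicate 1 alone (adjusted p = 0.0229). Its mean was 195 ± 8.6 CPM at 0.001 µM, 257 ± 4.9 at 0.01 µM, 297 ± 8.7 at 0.1 µM, 214 ± 19.7 at 1 µM, 284 ± 22.7 at 10 µM and 319 ± 5.7 at 100 µM (SD, n = 3).

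RHOB, a small GTPase gene that responds early to stress and growth factors, was also lowest at 0.001 and 1 µM, with means of 155 ± 12.9 and 155 ± 8.1 CPM (SD, n = 3) against 178 to 184 CPM at the other doses and 0 µM. It stood at 191, 180 and 182 CPM in the controls and at 160, 145 and 159 CPM at 1 µM, with no overlap. The change was -0.25 ± 0.05 on the log2 scale (adjusted p = 0.00318, edgeR). Without 1 µM replicate 2 its call was lost, and that was the only library whose removal did so. RHOB is named here because it met the naming rule of the step from 1 to 10 µM, described below.

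Of 19 genes on the hypoxia list, which holds ADM and not DDIT4, edgeR called 1, ADM, while 2.01% of all tested genes were called, 0.431% as lower. DESeq2 called 2 of the list. All 3 treated libraries lay below all controls for 4 of the 19, and for 8.14% of all tested genes. VEGFA, the vascular growth factor, stood at 264, 281 and 296 CPM in the controls and 251, 212 and 262 CPM at 1 µM (log2 change -0.21, adjusted p = 0.0668, edgeR). Its libraries did not overlap between groups. The median log2 change of the list was -0.06, beside 0.00 for all tested genes. Of 33 genes of the amino acid response driven by ATF4, the list that holds it, DDIT4 was the 1 called, and the list's median log2 change was 0.00. In that list CHAC1 changed by -0.16 (adjusted p = 0.706), ASNS by 0.42 (0.255), PSAT1 by 0.13 (0.0806) and PHGDH by 0.06 (0.527) on the log2 scale, none of them called by edgeR.

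CTGF (ENSG00000118523, chr6:131948176-131951373) and CYR61 (ENSG00000142871, chr1:85580761-85583962) rose by a like amount. CTGF had 45.6, 42.3 and 44.0 CPM in the controls and 55.7, 53.5 and 55.7 CPM at 1 µM (log2 change 0.32 ± 0.05, adjusted p = 0.00062, edgeR). CYR61 had 110, 104 and 104 CPM in the controls and 131, 128 and 134 CPM at 1 µM (log2 change 0.31 ± 0.05, adjusted p = 0.00062). Neither gene's groups overlapped, and replicates lay close together within each group. Both calls held without any 1 library. They were lost with the share of reads outside counted genes as a covariate (adjusted p = 0.151 and 0.25, edgeR). They were also lost against control replicate 1 alone (log2 changes 0.27 and 0.25).

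Across doses, CTGF had its highest means at 0.01 µM (52.8 ± 3.1 CPM, SD, n = 3) and 1 µM (55.0 ± 1.3 CPM) and its lowest at 100 µM (31.6 ± 0.68 CPM). CYR61 had means of 126 ± 3.2 CPM at 0.01 µM, 131 ± 2.8 CPM at 1 µM and 94.5 ± 4.1 CPM at 100 µM. Both were nearer the control at 0.1 µM, at 43.2 ± 2.9 and 113 ± 5.6 CPM. Of 15 response genes of YAP and TGF-beta tested, CTGF and CYR61 were the members called, where 1.57% of all tested genes were called higher. The list median was 0.07. FOS and EGR1, early growth-response transcription factors, had log2 changes of 0.52 (adjusted p = 0.0674) and 0.78 (0.0822).

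**Figure D1:**
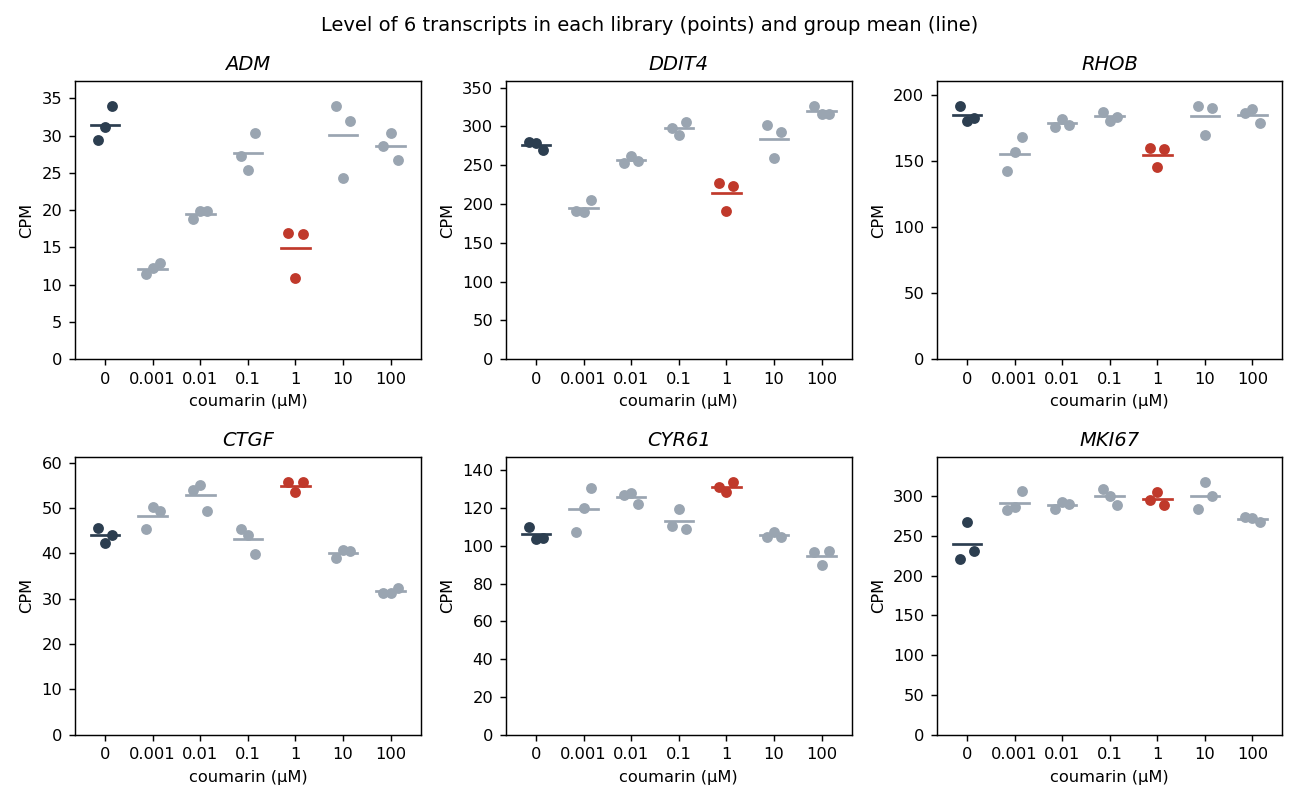
Level in CPM (vertical axis, from 0) of 6 transcripts in each of the 21 libraries (points) with the mean of each group of 3 (line), by coumarin dose in µM; 0 µM is dark, 1 µM red. ADM, DDIT4 and RHOB are low at 0.001 and 1 µM, CTGF and CYR61 are high at 0.01 and 1 µM, and MKI67 is lowest at 0 µM.

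Over all tested genes, 335 passed the test (2.01%), 263 higher (1.57%) and 72 lower (0.431%) at 1 µM. The split of 78.5% higher became 55.4% with upper-quartile scaling (118 higher, 95 lower), so the balance of directions depends on the scaling. Of the 335 genes, 303 code for protein. The changes were small: the median log2 change was 0.20 among higher and -0.29 among lower genes, and 7 genes changed at least 2-fold. These 7 were ADM, IGFL2, the pseudogenes UBE2V1P2 and NOC2LP1 and 3 noncoding transcripts. IGFL2, NOC2LP1 and the 3 noncoding transcripts had low means over the 6 libraries, 0.229 to 0.898 CPM. IGFL2 had 0.401, 0.526 and 0.452 CPM in the controls and 0.105, 0.122 and 0.123 CPM at 1 µM, close to the floor of 3 counts (0.104 CPM), so its fold is not given. Higher genes had a median level of 145 CPM and lower genes 25.9 CPM, against 15.8 CPM over all tested genes. All 3 treated libraries lay on 1 side of all 3 controls for 327 of the 335, and for 17.9% of all tested genes, 9.79% higher and 8.14% lower.

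**Figure D2:**
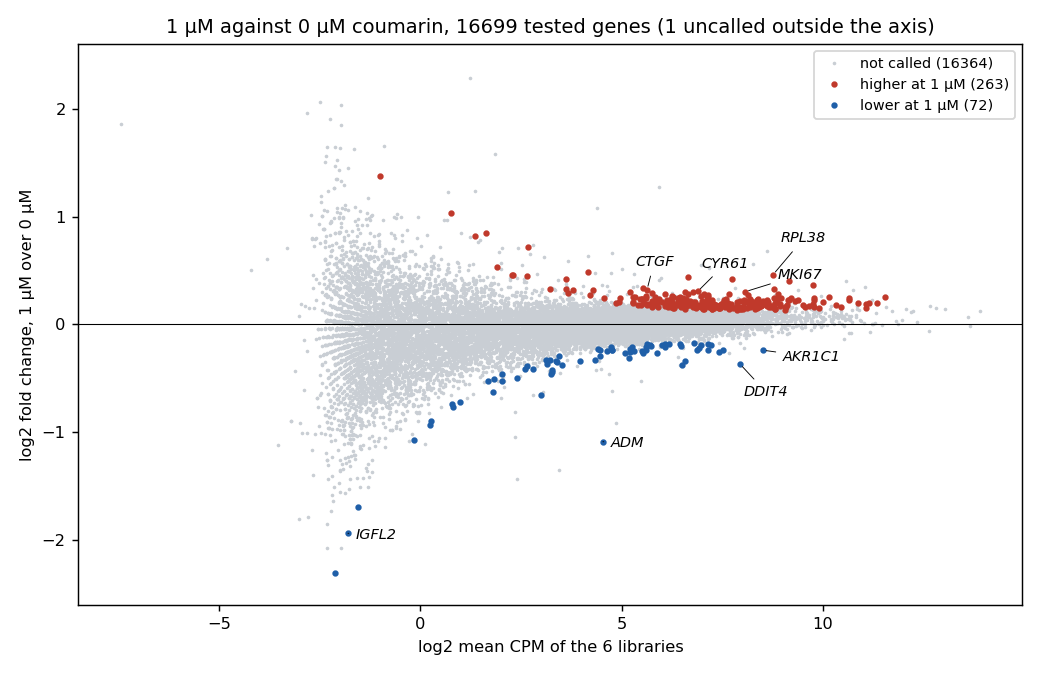
Each tested gene by its mean level in the 6 libraries (horizontal axis, log2 CPM) and its log2 fold change at 1 µM over 0 µM (vertical axis); 263 genes called higher are red and 72 called lower are blue. Called genes of high level lie close to 0, ADM stands apart at a log2 change of -1.09, and 1 gene that was not called lies outside the axis.

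How many genes passed depended on single libraries. Without control replicate 3 the count was 38, without replicate 2 it was 128 and without replicate 1 it was 663. Without 1 µM replicate 1, 2 or 3 it was 89, 77 or 301. With control replicate 1 as the only control, 31 genes were called, 19 of them among the 335. The count of calls was 30 when each gene had to be called without any 1 library, and 5 when it also had to be called, at the same threshold of 0.05, under each alternative scaling, filter, tool, covariate and choice of libraries: DDIT4, AKR1C1, MKI67, PRRC2C and NUP214.

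**Figure D3:**
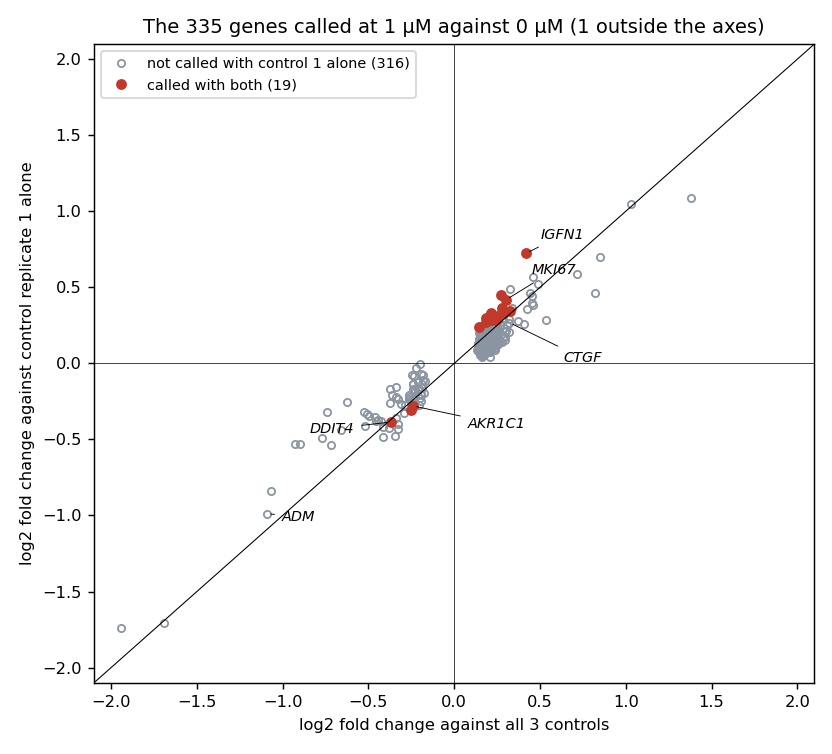
The 335 genes called at 1 µM, by log2 fold change against all 3 controls (horizontal axis) and against control replicate 1 alone (vertical axis); filled points are the 19 called both ways, the line marks equality, and 1 gene lies outside the axes. The treated libraries and control replicate 1 enter both axes.

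Of the genes that held throughout, MKI67 (ENSG00000148773), the proliferation marker Ki-67, had 221, 267 and 231 CPM in the controls and 294, 305 and 288 CPM at 1 µM. The groups did not overlap, and control replicate 2 lay nearest the treated libraries. The log2 change was 0.30 ± 0.05 (adjusted p = 0.00062, edgeR). The other treated groups had means of 271 to 300.5 CPM, so the level at 1 µM was not particular to that dose. Its transcript is 12678 bases long.

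PRRC2C, which encodes a large RNA-binding protein, and NUP214, a nuclear pore component, were named after their values were seen because they were the other rises called throughout. PRRC2C had 239, 280 and 242 CPM in the controls and 304, 311 and 309 CPM at 1 µM (log2 change 0.28, adjusted p = 0.00062, edgeR). NUP214 had 59.1, 64.9 and 59.3 CPM in the controls and 75.6, 74.5 and 73.5 CPM at 1 µM (log2 change 0.29, adjusted p = 0.00062). Neither gene's groups overlapped. Their transcripts are 10366 and 7600 bases long.

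Transcript length moved with these results. For the 520 tested genes with transcripts of at least 10000 bases, the median log2 change at 1 µM was 0.08 against control replicate 1, -0.04 against replicate 2 and 0.00 against replicate 3. Of the 31 genes called against control replicate 1 alone, 27 were higher, with a median transcript length of 11810 bases against 3032 bases over all tested genes. With each library's trend with transcript length and GC content removed, MKI67, PRRC2C and NUP214 were still called.

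AKR1C1 encodes an aldo-keto reductase of steroid and xenobiotic metabolism and is a target of the oxidative stress factor NRF2. It had 404, 390 and 383 CPM in the controls and 330, 328 and 340 CPM at 1 µM. All treated libraries lay below all controls (log2 change -0.24 ± 0.04, adjusted p = 0.00062, edgeR). Its means at 0.001, 0.01, 0.1 and 10 µM were 343 to 353 CPM, and at 100 µM it was 216 ± 4.9 CPM (SD, n = 3). AKR1C1 shares near-identical sequence with its paralogs, so its count is uncertain to the extent that reads were split among them.

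The enzymes and receptors that handle coumarin gave little signal. Of 13 genes for coumarin and drug oxidation 5 held enough counts to be tested, and edgeR and DESeq2 each called 0, with 0 at an unadjusted p under 0.05. CYP2A6 had 0, 0 and 0.0645 CPM in the controls and 0.035, 0.152 and 0 CPM at 1 µM, at or near that floor, and CYP3A4 had 0 counts in all 6. CYP1A1, the leading target of the aryl hydrocarbon receptor AHR, had 0.734, 0.821 and 1.13 CPM in the controls and 1.12, 1.28 and 1.11 CPM at 1 µM (log2 change 0.38, adjusted p = 0.519). Its groups overlapped. Of 10 AHR targets tested edgeR called 0, with 3 at an unadjusted p under 0.05 and 1 called by DESeq2. ALDH3A1, an aldehyde dehydrogenase of that list, had a log2 change of -0.18 (adjusted p = 0.0805).

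Of 22 NRF2 targets tested edgeR called 1, AKR1C1, where it called 2.01% of all tested genes. DESeq2 called 2 of the list, 1 in each direction. The median log2 change was 0.03, and 17 of the 22 had a log2 change above 0, where 50.4% of all tested genes did. NQO1, a quinone reductase and the usual readout of NRF2, stood at 731, 659 and 684 CPM in the controls and 697, 716 and 695 CPM at 1 µM (log2 change 0.02, adjusted p = 0.846, edgeR). The groups overlapped. Of 9 tested genes of the vitamin K cycle, which coumarin-derived anticoagulants block, edgeR and DESeq2 called 0, and 0 had an unadjusted p under 0.05. VKORC1, the enzyme those drugs inhibit, had 28.0, 27.2 and 28.1 CPM in the controls and 24.9, 24.7 and 30.01 CPM at 1 µM (log2 change -0.06, adjusted p = 0.718).

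ABCC3, an exporter of conjugated compounds and bile salts, fell. It had 49.4, 51.1 and 51.3 CPM in the controls and 41.4, 43.5 and 41.3 CPM at 1 µM, with no overlap (log2 change -0.27 ± 0.05, adjusted p = 0.0014, edgeR). The call held without any 1 library. It was lost with the share of reads outside counted genes as a covariate (adjusted p = 0.173, edgeR) and against control replicate 1 alone (log2 change -0.23). Of 7 efflux transporters tested ABCC3 was the member called, where 0.431% of all tested genes were called lower. Its means were 47.4 to 49.3 CPM at 0.001 to 0.1 µM, 40.0 ± 1.1 CPM at 10 µM and 31.3 ± 0.97 CPM at 100 µM. SLC30A1, a zinc exporter, also fell (log2 change -0.19, adjusted p = 0.0299), and so did IER3, an early stress-response gene (-0.19, adjusted p = 0.0118). SLC30A1 was not called without control replicate 2 or 3 or 1 µM replicate 1 or 2, and IER3 was not called without control replicate 3 or 1 µM replicate 2. Against control replicate 1 alone their adjusted p were 0.317 and 0.0728.

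Some genes of the cytoskeleton and matrix were higher at 1 than at 0 µM in small steps. Of 20 actin and adhesion genes 7 were called, all higher, where 1.57% of all tested genes were called higher, and the median log2 change of the list was 0.10. VCL (vinculin) had 173, 179 and 164 CPM in the controls and 204, 199 and 195 CPM at 1 µM (log2 change 0.21, adjusted p = 0.00449, edgeR). MYH9 (non-muscle myosin) had 637, 614 and 586 CPM and then 739, 728 and 686 CPM (log2 change 0.23, adjusted p = 0.00519). ACTN4 (alpha-actinin) and TLN1 (talin) changed by 0.22 and 0.21. None of these 4 genes' groups overlapped.

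Of 16 matrix genes tested 6 were called, all higher, with a list median of 0.12. COL12A1, a fibril-associated collagen, had 407, 454 and 401 CPM in the controls and 505, 502 and 491 CPM at 1 µM (log2 change 0.25, adjusted p = 0.00225, edgeR). FN1 (fibronectin) had 39.7, 43.4 and 38.7 CPM and then 43.9, 55.6 and 53.8 CPM, with 1 µM replicate 1 close to the controls (log2 change 0.33, adjusted p = 0.0119). COL4A2 and LAMC1, basement membrane chains, changed by 0.24 and 0.16. Against control replicate 1 alone 0 of the 20 actin genes and 1 of the 16 matrix genes, COL12A1, were called. Without control replicate 1, 2 or 3 the actin list had 9, 5 or 0 calls and the matrix list 5, 4 or 0. Without 1 µM replicate 1, 2 or 3 they had 0, 2 or 7 and 2, 1 or 5. With the share of reads outside counted genes as a covariate both lists had 0 calls. The rises did not hold against 0.001 to 0.1 µM, a comparison described below. There 2 actin and 3 matrix genes were called, all lower, where 0.826% of all tested genes were. The list medians there were -0.05 and -0.07, so these lists were not raised over the lower doses.

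Of lipid synthesis genes 9 passed the test. Of 25 genes of cholesterol synthesis and sterol sensing 5 were called, all higher (1.57% of all tested genes were), and all 25 had a log2 change above 0, where 50.4% of all tested genes did, with a median of 0.11. With upper-quartile scaling 2 were called. DHCR7, the reductase of the last step, changed by 0.25 (adjusted p = 0.0155, edgeR). INSIG1, of the sterol sensing part of the list, changed by 0.18 (0.0218). Of 19 genes of fatty acid and triglyceride synthesis 4 were called, all higher: SCD, ACACA, ACLY and ELOVL5. SCD, the stearoyl-CoA desaturase, had 810, 821 and 795 CPM in the controls and 969, 920 and 944 CPM at 1 µM (log2 change 0.22 ± 0.04, adjusted p = 0.000843). ACACA, which makes malonyl-CoA, had 170, 177 and 169 CPM and then 206, 204 and 191 CPM (log2 change 0.22, adjusted p = 0.00165).

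The calls of SCD and ACACA held without any 1 library. They were lost with the share of reads outside counted genes as a covariate (adjusted p = 0.115 and 0.228, edgeR). They were also lost against control replicate 1 alone (log2 changes 0.22 and 0.24). The cholesterol list had 0 calls against control replicate 1 alone, 0 without control replicate 2, control replicate 3 or 1 µM replicate 1, and 1 without 1 µM replicate 2. The fatty acid list had 2 calls without control replicate 3, 1 µM replicate 1 or 1 µM replicate 2. With the share of reads outside counted genes as a covariate both lists had 0 calls. Against 0.001 to 0.1 µM 1 cholesterol gene was called, as higher, and 0 fatty acid genes, where 0.204% of all tested genes were called higher. There 15 of the 25 cholesterol genes had a log2 change above 0, and both list medians were 0.01. Of 14 genes of fatty acid oxidation edgeR and DESeq2 called 0 at 1 against 0 µM, with 1 at an unadjusted p under 0.05.

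On the lists of proteasome subunits, synthetases, chaperones and heat shock proteins the called genes were all higher. Among all tested genes 1.57% were called higher, and 50.4% had a log2 change above 0. Of 26 proteasome subunits 4 were called, all higher, and all 26 had a log2 change above 0, with a median of 0.11. PSMD1 had 136, 138 and 136 CPM in the controls and 152, 157 and 159 CPM at 1 µM (log2 change 0.19 ± 0.04, adjusted p = 0.0036, edgeR). Of 20 cytosolic aminoacyl-tRNA synthetases, which charge tRNAs, 4 were called higher and all 20 had a log2 change above 0. With upper-quartile scaling 1 was called. AARS, the alanine enzyme, changed by 0.21 (adjusted p = 0.0077).

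Of 19 chaperones of the endoplasmic reticulum stress response 3 were called higher, where 1.57% of all tested genes were. CANX (calnexin) had 1196, 1203 and 1191 CPM in the controls and 1339, 1344 and 1395 CPM at 1 µM (log2 change 0.18, adjusted p = 0.00471, edgeR). HYOU1 changed by 0.21 (adjusted p = 0.00281). HSP90AB1, the constitutive cytosolic chaperone, changed by 0.25 (adjusted p = 0.00235) and was 1 of 2 of 17 heat shock proteins called. HNRNPA2B1, an RNA-binding splicing factor, changed by 0.25 (adjusted p = 0.0014) and led 5 of 24 splicing factors called higher, while that list's median was -0.01.

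These calls were not found with the share of reads outside counted genes as a covariate, nor against control replicate 1 alone, where 0 proteasome, synthetase, chaperone, heat shock or splicing members were called. Control replicate 1 held 1590 CPM of HNRNPA2B1 against 1387 and 1425 CPM in replicates 2 and 3, and 2978 CPM of HSP90AB1 against 2587 and 2596 CPM. The 1 µM libraries held 1695, 1748 and 1786 CPM and 3251, 3239 and 3231 CPM. Control replicate 1 thus stood between the other controls and the treated libraries for both genes. Without control replicate 3 the lists of proteasome subunits, synthetases, chaperones, heat shock proteins and splicing factors had 1, 0, 0, 0 and 1 calls, against 4, 4, 3, 2 and 5 with all libraries. Without control replicate 2 they had 1, 0, 2, 1 and 1, without 1 µM replicate 1 they had 1, 0, 2, 1 and 1, and without 1 µM replicate 2 they had 2, 0, 2, 1 and 1. Without control replicate 1 they had 11, 6, 5, 2 and 7, and without 1 µM replicate 3 they had 3, 3, 3, 1 and 4.

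Growth lists gave few calls, beside 1.57% of all tested genes called higher and 0.431% called lower. Of 39 ribosomal proteins on the list RPL11 was called, of 22 ribosome biogenesis genes 3, of 31 mitosis genes 3 and of 29 DNA replication genes POLA1, all higher. The medians were 0.07, 0.07, 0.07 and 0.03. Nuclear respiratory chain subunits had 4 of 31 called higher. Outside these lists the ribosomal protein gene RPL17 (log2 change -0.25, adjusted p = 0.0442, edgeR) and the respiratory chain gene NDUFS7 (-0.33, 0.0168) were called lower. Without control replicate 3, 0 ribosomal, 0 biogenesis, 1 mitosis, 0 replication and 0 respiratory chain genes were called, and without control replicate 1 the counts were 6, 4, 3, 1 and 9. Against control replicate 1 alone they were 0, 0, 1, 0 and 0. The 13 mitochondrially encoded messenger RNAs had a median log2 change of 0.16 with 0 called by edgeR, 6 at an unadjusted p under 0.05 and 2 called by DESeq2. With the share of reads outside counted genes as a covariate that median was -0.02. Of p53 targets (21 tested), apoptosis regulators (21) and interferon-induced genes (21) edgeR called 0, with 3, 1 and 2 at an unadjusted p under 0.05 and 1, 0 and 0 called by DESeq2.

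**Figure D4:**
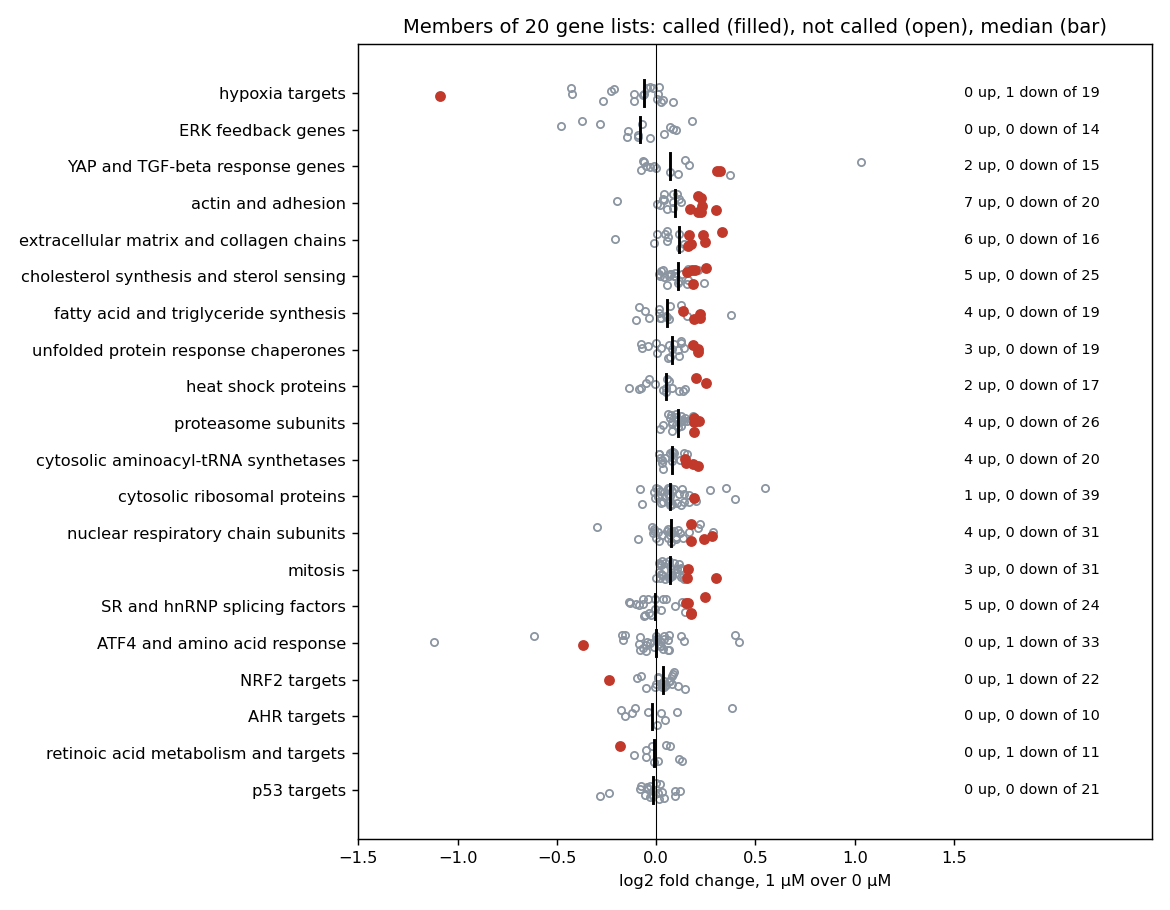
Log2 fold change at 1 µM over 0 µM (horizontal axis) of the tested members of 20 gene lists (rows); filled points are called genes, open points are not, and the bar is the list's median. ADM is the called member of the hypoxia list, and the called members of the actin, matrix, lipid and proteasome lists lie between about 0.1 and 0.4 beside uncalled members of similar size.

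The largest rises of coding genes by the naming rule included TNNT2, a cardiac troponin, at 3.61, 2.66 and 2.84 CPM in the controls and 4.27, 4.47 and 4.44 CPM at 1 µM (log2 change 0.53, adjusted p = 0.0345, edgeR). Its groups did not overlap. RPL38 and RPL37A, ribosomal proteins outside the list above, changed by 0.46 (adjusted p = 0.0376) and 0.37 (0.0317), and SEC61G, a subunit of the secretory translocon, by 0.41 (0.027). Their calls were lost against control replicate 1 alone (adjusted p = 0.779, 0.555, 0.599 and 0.599 in that order). TNNT2, RPL38 and RPL37A were called without control replicate 1 and lost their calls without any other single library. SEC61G lost its call without control replicate 2 or 3 or 1 µM replicate 1 or 2. DYNC1H1, the dynein heavy chain, had 389, 426 and 365 CPM and then 504, 498 and 477 CPM. Its log2 change was 0.33 ± 0.06 (adjusted p = 0.00235, edgeR). It was called without any 1 library, and its log2 change against control replicate 1 alone was 0.34. With the share of reads outside counted genes as a covariate its call was lost (adjusted p = 0.389, edgeR). Its transcript is 20003 bases long.

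IGFN1, SETBP1, UQCRHL, FGFBP1 and HRCT1 rose by 0.32 to 0.42. FGFBP1, a secreted carrier of fibroblast growth factors, had 18.7, 17.0 and 16.4 CPM and then 22.3, 20.03 and 22.6 CPM (adjusted p = 0.00519, edgeR). UQCRHL is a near copy of a respiratory chain gene, so its reads are uncertain. Of these 5 genes IGFN1 alone was called against control replicate 1, and its transcript is 11810 bases long. FGFBP1 was not called without control replicate 3 or 1 µM replicate 1, and each of the other 4 lost its call without at least 4 of the 6 libraries.

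Below ADM the largest coding falls were mostly of low level. SSTR2, a somatostatin receptor, had 1.17, 1.91 and 1.548 CPM in the controls and 0.73, 0.70 and 0.99 CPM at 1 µM (log2 change -0.93 ± 0.24, adjusted p = 0.034, edgeR). C2orf92, NYAP1, PLAC9, LRTOMT and SARM1 changed by -0.90 to -0.51 at control means of 1.549 to 4.144 CPM. KRT81, a hair keratin, had 10.6, 11.6 and 11.2 CPM and then 7.66, 8.73 and 8.14 CPM (log2 change -0.44, adjusted p = 0.00281), and its call held without any 1 library. POU5F1, the pluripotency factor OCT4, had 10.7, 10.97 and 11.4 CPM and then 8.46, 7.97 and 8.20 CPM (log2 change -0.43, adjusted p = 0.0211), a call lost without any of 5 libraries, control replicate 1 being the exception.

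GNB1L, CNPY2, TMEM170A and TTLL3 changed by -0.41 to -0.34. None of the calls from SSTR2 to TTLL3 was found against control replicate 1 alone. Among these falls KRT81 was the 1 called without any single library, and control replicate 3 was needed for each of the others. LRTOMT, SARM1, KRT81, POU5F1, GNB1L, CNPY2 and TTLL3 overlap other annotated genes, so their reads cannot be told apart from their neighbours' where strand was not used in counting. Among noncoding genes the rule named the rises of UBE2V1P2, SNRPEP4 and AC016596.1, by 0.82 to 1.03 on the log2 scale, and the falls of AL109615.2, AC015813.1 and NDUFB8P2, by -0.74 to -0.63. UBE2V1P2 had 1.102, 1.249 and 0.9999 CPM in the controls and 2.62, 2.31 and 1.94 CPM at 1 µM (adjusted p = 0.00974, edgeR), and as a processed pseudogene it may take reads from its parent gene.

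A second comparison set the 3 libraries at 1 µM against the 9 at 0.001, 0.01 and 0.1 µM, without the controls. It called 172 of 16699 genes (1.03%), 34 higher (0.204%) and 138 lower (0.826%). The groups did not overlap for 87 of the 172, and for 2.81% of all tested genes, 1.31% higher and 1.5% lower. The lower genes were of small change, with a median of -0.205 on the log2 scale. MN1, a transcriptional regulator, changed by -0.42 (adjusted p = 0.0077, edgeR), ITGB4 by -0.40 (0.0266), FN3K by -0.33 (0.0111), BCL9L by -0.30 (0.012), FAM222B by -0.30 (0.00758) and PML by -0.29 (0.00758). Among genes read for their function after their values were seen were CIC, DOT1L and HCFC1, regulators of chromatin and transcription, at -0.26 to -0.22. Among the rises were FUNDC1, MRPL50, XAGE2, BCCIP, SRSF5 and PTTG1, at 0.16 to 0.20. FOS changed by 0.50 (adjusted p = 0.0397), and its libraries overlapped between the groups.

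These calls moved with the base composition of transcripts and with 1 library. The lower genes had a median transcript GC content of 61.3% against 48.4% over all tested genes and 45.4% among the higher genes. Over all tested genes the median log2 change ran from 0.04 in the fifth of lowest GC content to -0.06 in the fifth of highest. With the trends in GC content and length removed 20 genes were called, and without 1 µM replicate 3 the count was 1. All 12 genes named above for this comparison by their size of change lost their call without 1 µM replicate 3, and some also without others. MN1 had 8.64, 6.75 and 7.61 CPM at 1 µM, with replicate 2 the lowest. Against the lower doses ADM changed by -0.34 (adjusted p = 0.234, edgeR), DDIT4 by -0.20 (0.012), CTGF by 0.20 (0.012), ABCC3 by -0.21 (0.0077) and MKI67 by 0.01 (0.917).

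**Figure D5:**
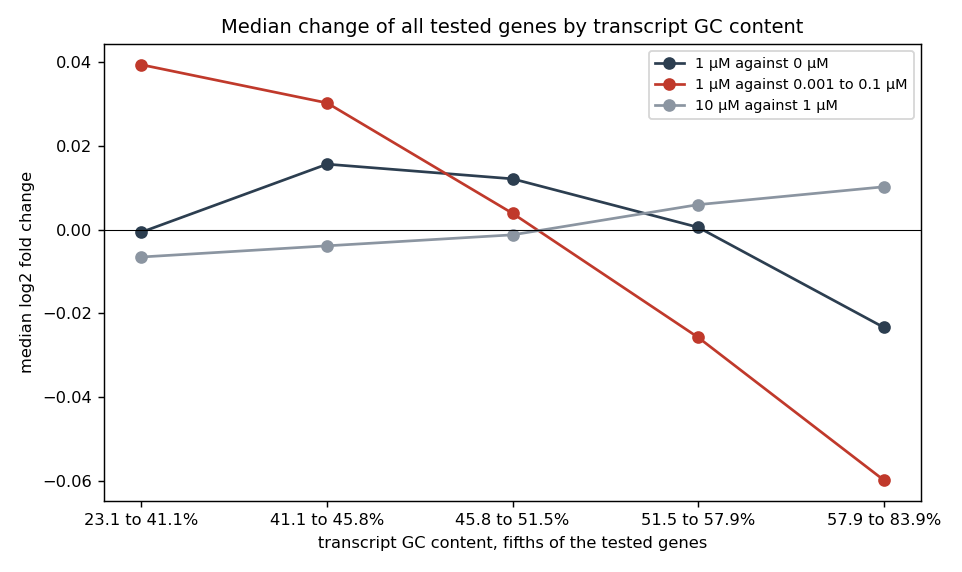
Median log2 fold change of all tested genes (vertical axis) in 5 equal bins by transcript GC content (horizontal axis, percent) for the 3 comparisons (lines). The line of 1 µM against 0.001 to 0.1 µM falls from 0.04 to -0.06, while the other lines lie between -0.0233 and 0.0156.

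The step from 1 to 10 µM called 21 genes (0.126%), 5 higher (0.0299%) and 16 lower (0.0958%), and these 6 libraries again exclude the controls. The groups did not overlap for any of the 21, nor for 10.1% of all tested genes, 4.9% higher and 5.19% lower. It shares the 1 µM libraries with both comparisons above, so a low or high level at 1 µM enters all of them. All 5 genes that were higher at 10 µM were named by the rule: ADM (log2 change 1.03, adjusted p = 0.00407, edgeR), MN1 (0.44, 0.0436), DDIT4 (0.41, 1.25e-05), RHOB (0.25, 0.0145) and PSAT1 (0.18, 0.0417). ADM had 33.9, 24.3 and 32.0 CPM at 10 µM, all above the 3 libraries at 1 µM. Its call was lost without 10 µM replicate 3, that of RHOB without 1 µM replicate 2, 10 µM replicate 1 or 10 µM replicate 3, and those of MN1 and PSAT1 were lost without any of 5 of the 6 libraries. In a fit of these 6 libraries alone 1 gene was called higher, DDIT4, so the other rises lost their calls there. CTGF changed by -0.46 (adjusted p = 1.18e-06) and CYR61 by -0.31 (0.000453), to 40.1 ± 1.0 and 106 ± 1.7 CPM (SD, n = 3).

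The genes that fell between 1 and 10 µM included a group of which 1 member, STRA6, had passed the test at 1 against 0 µM. Retinoic acid controls its own breakdown and uptake through nuclear receptors. Of 11 tested genes of its metabolism and response 4 were called lower at 10 µM, where 0.0958% of all tested genes were. These 4 were CYP26B1, TGM2, STRA6 and DHRS3. CYP26B1, which degrades retinoic acid, had 19.8, 18.6 and 19.2 CPM at 0 µM and 19.7, 19.1 and 16.8 CPM at 1 µM (log2 change -0.05, adjusted p = 0.819, edgeR). At 10 µM it had 9.45, 8.82 and 11.3 CPM, below every library of the lower doses (log2 change from 1 µM -0.89, adjusted p = 9.36e-09). CYP26A1, its sister enzyme, had 1.58 ± 0.21 CPM at 0 µM and 1.63 ± 0.07 CPM at 1 µM (SD, n = 3; adjusted p = 0.95).

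TGM2, a transglutaminase, went from 15.0 ± 0.74 CPM at 1 µM to 10.4 ± 0.27 CPM at 10 µM (log2 change -0.53, adjusted p = 0.000101, edgeR). DHRS3, which reduces retinal, went from 103 ± 3.6 to 82.4 ± 5.1 CPM (log2 change -0.32, adjusted p = 0.000318). Neither gene's libraries overlapped between these doses.

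STRA6, the cell-surface receptor for retinol-binding protein, was the member of this group called at 1 µM. It had 88.1, 95.7 and 94.8 CPM in the controls and 89.7, 79.5 and 76.5 CPM at 1 µM, and the groups overlapped through replicate 1 (log2 change -0.18 ± 0.05, adjusted p = 0.0466, edgeR). The call was lost without 1 µM replicate 2 or 3, without control replicate 2 or 3, and against control replicate 1 alone (adjusted p = 0.773). Against the lower doses it changed by -0.22 (adjusted p = 0.0077), and from 1 to 10 µM by -0.34 (0.000223), reaching 64.3 ± 4.1 CPM at 10 µM and 33.8 ± 1.0 CPM at 100 µM (SD, n = 3). SCNN1A, a subunit of the epithelial sodium channel, had 36.4 ± 1.0 CPM at 0 µM, 35.4 ± 2.1 CPM at 1 µM and 27.9 ± 0.59 CPM at 10 µM (log2 change from 1 to 10 µM -0.34, adjusted p = 0.00107). The falls of CYP26B1, TGM2, STRA6, DHRS3, SCNN1A and CTGF and the rise of DDIT4 from 1 to 10 µM were called, at the threshold of 0.05, without any 1 library and under each alternative scaling, filter, tool, covariate and choice of libraries. TNFSF15, a cytokine of the tumour necrosis factor family, changed by -0.42 (adjusted p = 0.00284) and was not called without 1 µM replicate 1 or without 10 µM replicate 1.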

How the data were processed

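Poly(dT)-selected RNA of 21 libraries (7 doses, 3 each) was sequenced. Gene counts and FPKM are in the table the authors deposited, and the submitters' processing notes name HISAT2, GRCh38 and DESeq2, without a version. What counted the reads, and whether by strand, is not given in the sources used here. GENCODE 29 held all 58735 gene IDs. Deposited counts were analysed with edgeR 4.0.16 (R 4.3.3): filterByExpr left 16699 genes, TMM scaling was used, and 1 quasi-likelihood fit over all 21 libraries (14 residual degrees of freedom, common biological coefficient of variation 4.491%) gave the 3 comparisons. A gene is called at a Benjamini-Hochberg adjusted p under 0.05. CPM used TMM-scaled library sizes, and 3 counts (0.104 CPM at the smallest) was taken as the floor, which covers counting error only. Totals ran from 26984563 to 43375429 counts per library. The authors' FPKM served for the share of reads outside counted genes and for limma 3.58.1 on log2(FPKM + 1) and log2(FPKM + 0.1).

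Genes were named by a rule: protein-coding, called, at least 1 CPM, libraries not overlapping, the 14 largest changes each way, 3 noncoding each way, up to 4 of each of 47 lists by smallest p, 6 each way in the other comparisons, and fixed coumarin, retinoid and stress genes. PRRC2C, NUP214, IGFL2, NOC2LP1, CIC, DOT1L, HCFC1, RPL17 and NDUFS7 fell outside the size rule and were chosen after their values were seen. The members and lists were chosen with earlier results of these data known. On simulated counts for 1 against 0 µM (16463 genes) the test recovered 60%, 80%, 94% and 100% of genes changed 1.25-, 1.5-, 2- and 4-fold, with 6 false among 173 calls. The changed genes had a mean of at least 1 CPM. The simulation held no difference shared by many genes of a library, such as that among the controls. Its rates therefore do not describe calls that depend on such a difference. Alternatives were other scalings, filters, tools (DESeq2 1.42.0, limma), covariates, thresholds, a replicate block, each library left out, control replicate 1 alone and, chosen after seeing the data, removal of GC and length trends. Some results are not reported here. Figures used matplotlib 3.10.9.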

Additional observations from a re-analysis of the deposited data

How the results depend on the processing

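The count of 335 genes called at 1 against 0 µM became 213 with upper-quartile scaling, 11 with the share of reads outside counted genes as a covariate, 31 with control replicate 1 as the only control, 539 with DESeq2, 215 and 220 with limma on log2(FPKM + 1) and log2(FPKM + 0.1), 709 with GC and length trends removed (chosen after seeing the data), 100 at an adjusted p under 0.01 and 17 at a fold of at least 1.5. Leaving out 1 library gave 38 to 663. RLE scaling, both filters and a fit of these 2 groups alone gave 278 to 442. The 172 genes called against the lower doses became 331 with no filter, 262 with the covariate, 365 with DESeq2, 1 with either limma setting, 20 with GC and length trends removed, 23 at an adjusted p under 0.01 and 1 at a fold of at least 1.5, and 1 to 305 with a library left out. The 21 genes called from 1 to 10 µM became 44 with no filter, 10 in a fit of these groups alone, 10 and 9 with limma, 44 with GC and length trends removed, 12 at an adjusted p under 0.01 and 2 at a fold of at least 1.5, and 11 to 23 with a library left out. The cause of these shifts was not tested.

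Deviations from the group means were hardly correlated between same-numbered libraries at 0 and 1 µM (r = 0.0451, 0.00415 and -0.00993 across genes). With 3 libraries per group this cannot decide whether the numbers mark pairs. With a replicate block the 3 counts were 323, 124 and 16.

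Of 65 called genes named in the text, RPL17 and NDUFS7 not among them, 5 were called in every alternative that kept the threshold of 0.05 and without any 1 library. Of the 335 called genes 334 kept their direction with the covariate. Among the genes named in the text, those whose direction changed had not been called at 1 against 0 µM. With the covariate the log2 change was -0.00736 for PTTG1, 0.0312 for MN1, -0.0259 for PML, 0.0569 for TNFSF15, 0.000249 for VKORC1, -0.0812 for NQO1 and -0.0395 for PHGDH. With control replicate 1 alone it was -0.00807 for PTTG1, 0.104 for MN1, -0.0542 for PML, 0.00429 for TGM2, 0.0781 for TNFSF15, -0.0558 for NQO1 and -0.0391 for PHGDH, and upper-quartile scaling gave -0.00502 for NQO1. With 1 of the 6 libraries left out it ran from -0.145 to 0.0398 for MN1, from -0.0304 to 0.188 for FN3K, from -0.0151 to 0.0879 for PML, from -0.106 to 0.0141 for CYP26B1, from -0.0145 to 0.0655 for NQO1, from -0.274 to 0.0449 for CHAC1, from -0.0519 to 0.135 for CYP26A1 and from -0.0485 to 0.0194 for DHRS3. Depth limits genes near the floor, such as CYP2A6, CYP3A4 and IGFL2.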
